A study of Mus musculus with 12 samples.

Results

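The comparison described here set the prefrontal cortex of cocaine-treated mice 7 d after the last injection against that of cocaine-treated mice 24 h after it, to follow how transcript levels moved as withdrawal proceeded. Its members were the genes selected by a tested locus and an FPKM of at least 1 in both cocaine groups (FPKM, the number of sequenced fragments of a gene divided by its transcript length in kilobases and by library size). There were 12708 such genes of the 14551 gene names tested at both times, and the other 1843 were under 1 FPKM in at least 1 cocaine group. At the edge of that limit, 4930581F22Rik was kept at 1.0001 FPKM at 24 h and 1.09 FPKM at 7 d, and Lct was left out at 1.21 and 0.9997 FPKM.

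The mice were male, of strain C57BL/6 (the J substrain by the methods) and aged 10 weeks, and received cocaine at 20 mg/kg per day, or saline, by intraperitoneal injection for 14 days. Tissue was taken 2 h, 24 h or 7 d after the final dose, from different animals at each time. Each of the 6 groups (cocaine or saline at each time) was made of 2 libraries, and a library pooled the whole prefrontal cortex of 5 mice. The deposited tables give 1 pooled FPKM per group, so no spread between libraries could be computed, no test was run, and the depth of the libraries is not in the tables. The 24 h and 7 d tables were also normalized separately. Time after the last dose, the processing of each table and the handling of each pair of libraries therefore cannot be told apart, and the saline groups, carried through the same 2 tables, are given beside the cocaine values as the background measured the same way.

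Log2 ratios of 7 d over 24 h were centred on the median of all genes, which lay at -0.05 in cocaine and -0.02 in saline before centring, and a gene was called higher or lower from a centred log2 ratio of 0.5 in either direction. This is a threshold of size and not of significance. The robust standard deviation of the centred ratios (scaled from the median absolute deviation) was 0.15 in cocaine and 0.22 in saline. It depended on the level: in cocaine it was 0.24 for the 2595 genes with a mean of 1 to 3 FPKM and 0.11 for the 1717 genes between 30 and 100 FPKM, where 8.71% and 2.15% of genes were called. A log2 ratio of 0.5 is thus about 2 such deviations in the first class and more than 4 in the second.

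Neurons that fire transcribe a set of immediate-early genes within minutes, among them the transcription factors Fos and Egr1 and the synaptic protein Arc. Signalling through the kinase ERK drives many of them, and the same signal induces phosphatases of the Dusp family that switch ERK off again. The circadian clock is a separate loop in which BMAL1 (the product of Arntl) and CLOCK bind E-box sequences of Per and Cry genes, whose proteins then inhibit them; Per1 and Per2 also respond directly to neuronal signals. Cocaine raises dopamine at its targets, which include the prefrontal cortex, and immediate-early genes are a standard readout of that stimulation.

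Of 12708 genes, 244 were called higher at 7 d than at 24 h in cocaine (1.92%) and 288 were called lower (2.27%), and 82.9% lay within 0.25 of 0. Genes of neuronal activity and of the clock stood among those lower at 7 d. Of 81 measured genes in 4 lists (immediate-early transcription factors, activity-regulated effectors, ERK feedback inhibitors and the circadian clock), 19 were called lower, or 23.5%, and 2 were called higher. Of these 19, 18 had a saline ratio; all 18 of those ratios were under 0 and 9 were called lower. Arc, Per2, Per1 and Dusp4 were each lower at 7 d by more than 1 on the log2 scale. Outside these lists and the glial markers described further on, most lists of synaptic, channel and metabolic genes had medians within 0.1 of 0 in cocaine.

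The sequences just before the transcription start of 5 of the lower genes are shown because they carry the letters through which these 2 pathways are known to act: the E-box CACGTG in clock genes and the cyclic AMP response half-site TGACGT in activity genes, each searched on both strands in the 250 bases upstream of the start in RefSeq (GRCm38.p6). The last 200 of these bases are printed 5′ to 3′ on the strand of the gene, with matches in capitals. Per1 lies at chr11:69098749-69098948 (plus strand), Ciart at chr3:95882229-95882428 (minus), Fos at chr12:85473690-85473889 (plus), Egr4 at chr6:85513590-85513789 (minus) and Dusp1 at chr17:26508473-26508672 (minus).
Per1: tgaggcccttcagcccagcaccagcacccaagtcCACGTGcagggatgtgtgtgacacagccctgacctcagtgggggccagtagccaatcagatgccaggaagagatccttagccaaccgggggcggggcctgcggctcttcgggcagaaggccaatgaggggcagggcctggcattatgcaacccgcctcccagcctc
Ciart: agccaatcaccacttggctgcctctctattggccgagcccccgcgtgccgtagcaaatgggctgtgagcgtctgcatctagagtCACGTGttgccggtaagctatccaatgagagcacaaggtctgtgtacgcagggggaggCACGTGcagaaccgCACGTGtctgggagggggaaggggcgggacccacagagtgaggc
Fos: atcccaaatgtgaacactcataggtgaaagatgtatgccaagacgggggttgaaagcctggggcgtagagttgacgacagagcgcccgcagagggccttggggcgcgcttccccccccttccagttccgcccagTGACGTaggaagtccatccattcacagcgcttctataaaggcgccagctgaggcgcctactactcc
Egr4: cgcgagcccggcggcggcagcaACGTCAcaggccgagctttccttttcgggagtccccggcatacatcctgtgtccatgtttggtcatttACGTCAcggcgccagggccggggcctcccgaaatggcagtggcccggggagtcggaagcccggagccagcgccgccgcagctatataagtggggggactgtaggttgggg
Dusp1: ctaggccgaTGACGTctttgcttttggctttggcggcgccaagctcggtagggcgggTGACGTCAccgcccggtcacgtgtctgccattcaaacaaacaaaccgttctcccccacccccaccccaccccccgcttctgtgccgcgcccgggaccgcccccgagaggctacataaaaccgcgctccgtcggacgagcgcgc

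The E-box began 166 bases before the start in Per1, and 116, 58 and 44 bases before it in Ciart. The half-site began 66 bases before the start in Fos and 178 and 110 bases before it in Egr4. In Dusp1 it began 191 and 143 bases before the start, and at the second place both strands matched in overlap, so that another match began at 141. The table lists a second start for Per1, without a match. Of the 19 genes called lower, 10 had an entry in the promoter table, and 3 of these held the E-box (Per1, Ciart and Dusp1, where it stands in lower case above) and 6 the half-site. Over all 27025 gene symbols in that table the shares were 6.86% and 7.29%. Of the 18 clock list genes with an entry, called or not, 5 held the E-box (27.8%) and 2 the half-site (11.1%). A match is a description of the letters in this window and not evidence of binding, and Per2, Bhlhe40 and Arc had no entry.

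Among immediate-early transcription factors, 7 of the 20 measured genes were called lower and none higher, against 2.27% of all genes called lower, and the median of the list was -0.29 in cocaine. In the saline groups the median was -0.39 and 6 genes were called lower (2.95% of all genes), so the list was also lower at 7 d without cocaine. Fos, a subunit of the AP-1 factor, was at 9.24 FPKM at 24 h and 4.66 FPKM at 7 d in cocaine, a log2 ratio of -0.94. In saline Fos was at 3.95 and 1.59 FPKM, a log2 ratio of -1.29. Levels in cocaine were thus above those in saline at both times while the ratio was no larger. Egr1, a zinc-finger factor induced by ERK, was at 70.0 and 38.4 FPKM in cocaine (log2 ratio -0.82) and at 35.1 and 22.6 FPKM in saline (-0.61). Nr4a1, an orphan nuclear receptor, was at 25.02 and 12.9 FPKM in cocaine (-0.90) and at 15.4 and 8.47 FPKM in saline (-0.84).

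Nab2, a corepressor of the Egr factors, differed from these in its saline values: it was at 10.1 and 5.94 FPKM in cocaine (-0.72) and at 6.98 and 6.06 FPKM in saline (-0.18), so that both groups stood at nearly the same level by 7 d. Egr4 was at 14.2 and 9.41 FPKM in cocaine (-0.55) and at 11.6 and 7.09 FPKM in saline (-0.68). Junb (-0.86 in cocaine, -0.62 in saline) and Klf10 (-0.77 and -0.39) completed the 7, but their loci in the 2 tables overlapped by only 0.08 and 0.13 of the longer one, so their ratios compare different gene models. Among members not called, Fosb was at 1.86 and 1.61 FPKM in cocaine, Npas4 at 2.32 and 2.15 FPKM, Egr3 at 38.8 and 39.1 FPKM and Jun at 12.6 and 12.8 FPKM, so the pattern did not extend to the whole list. Their saline ratios were -0.39, 0.08, -0.41 and -0.11. Nr4a2, a relative of Nr4a1, had the highest ratio of the list, with 1.49 FPKM at 24 h and 1.95 FPKM at 7 d in cocaine (0.44) where saline went from 2.56 to 1.46 FPKM (-0.79). Egr2 and Nr4a3 were left out by the limit of 1 FPKM because of their 7 d values: Egr2 stood at 2.30 FPKM at 24 h and 0.750 FPKM at 7 d in cocaine, and Nr4a3 at 2.46 and 0.965 FPKM. Maff was under the limit in both cocaine groups, and Atf3 was not tested at both times.

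**Figure D1:**
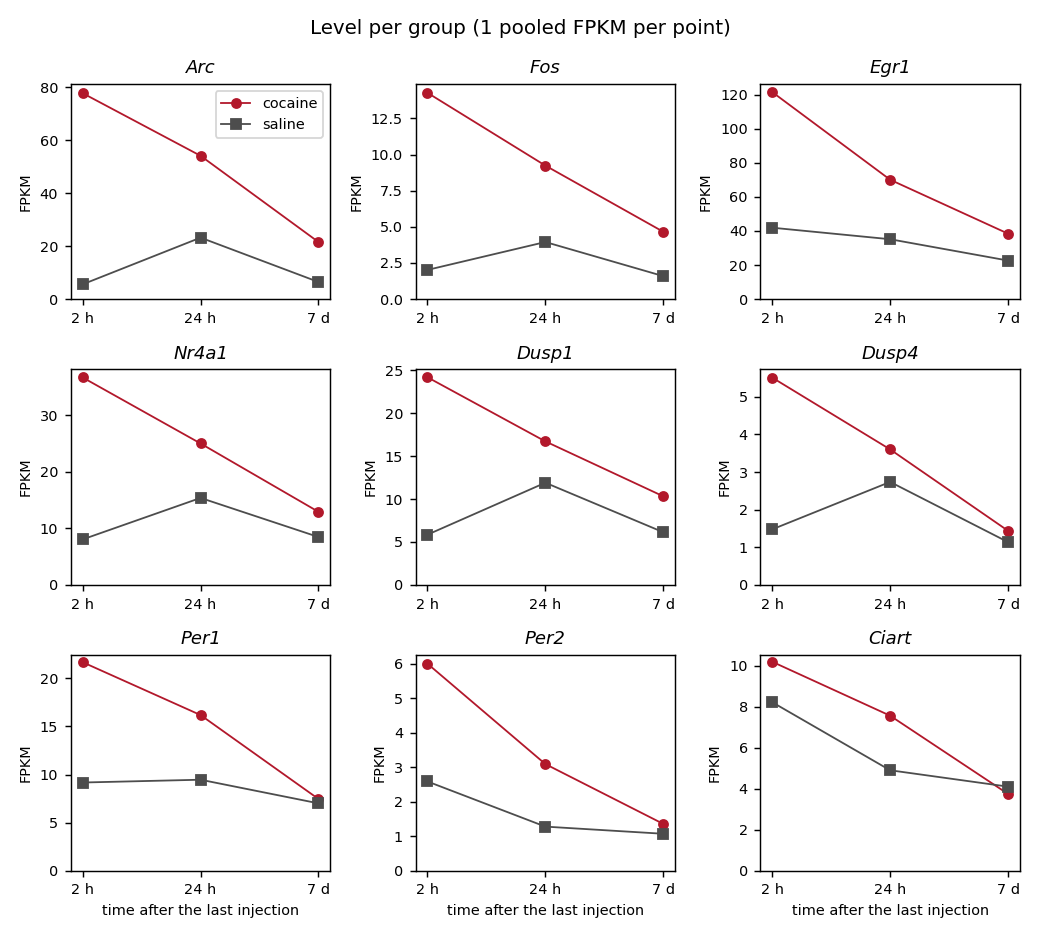
Levels in FPKM (vertical axes from 0) at 2 h, 24 h and 7 d after the last injection for 9 activity and clock genes, with cocaine as red circles and saline as grey squares; each point is 1 pooled value per group, so there are no error bars, the times are not spaced to scale, and values of different times come from tables that were normalized separately. Arc in cocaine goes from 77.8 FPKM at 2 h through 54.1 to 21.6 FPKM at 7 d, while at 7 d Per1 is at 7.46 FPKM in cocaine and 7.00 FPKM in saline, Per2 at 1.36 and 1.07 FPKM and Ciart at 3.74 and 4.10 FPKM.

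The effector genes that neuronal activity induces were mixed. Of 24 measured, 5 were called lower and 1 higher in cocaine (2.27% and 1.92% of all genes), with a median of 0.03. In saline 1 was called lower (2.95% of all genes). Arc, which directs the internalisation of AMPA receptors, had the lowest ratio of the list: on its locus (chr15:74669083-74672570, GRCm38) it was at 54.1 FPKM at 24 h and 21.6 FPKM at 7 d in cocaine (-1.28). In saline Arc was at 23.2 and 6.47 FPKM (-1.82), so that its 7 d cocaine level was close to the 24 h saline level. The difference of these ratios (cocaine less saline, centred on its own median) was 0.55 for Arc. Plk3, a stress-induced polo-like kinase, was at 3.87 and 2.33 FPKM in cocaine (-0.68) and at 2.59 and 2.12 FPKM in saline (-0.27). Trib1, a pseudokinase, was at 5.86 and 3.95 FPKM in cocaine (-0.52) and at 3.63 and 2.75 FPKM in saline (-0.38). Sik1, a kinase that restrains CREB coactivators, was at 1.85 and 1.05 FPKM in cocaine (-0.77) and was under 1 FPKM in saline at 7 d (0.686 FPKM). The fifth was the clock gene Per1, a member of both lists.

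The one effector called higher was Inhba, the beta A subunit of activin, with 5.31 FPKM at 24 h and 7.93 FPKM at 7 d in cocaine (0.63) and 4.64 and 10.0 FPKM in saline (1.14). Several classical late-response genes were nearly level: Bdnf, the neurotrophin, was at 6.62 and 6.84 FPKM in cocaine, Homer1 at 30.3 and 32.6 FPKM and Nptx2 at 18.1 and 19.8 FPKM. Their saline ratios were 0.10, -0.02 and -0.16.

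Among the 18 measured feedback inhibitors of ERK, 4 were called lower and 1 higher in cocaine (2.27% and 1.92% of all genes). The median was -0.12 in cocaine and -0.17 in saline. Dusp4, a nuclear phosphatase of ERK, was at 3.60 FPKM at 24 h and 1.44 FPKM at 7 d in cocaine (-1.27), and at 2.74 and 1.14 FPKM in saline (-1.24). Dusp5 was at 3.15 and 1.67 FPKM in cocaine (-0.86) and at 1.93 and 1.08 FPKM in saline (-0.81). In both phosphatases the cocaine and saline ratios lay within 0.1 of each other. Dusp1, which also acts on p38 and JNK, was at 16.7 and 10.3 FPKM in cocaine (-0.65) and at 11.9 and 6.14 FPKM in saline (-0.93). Spry4, an inhibitor of receptor tyrosine kinase signalling, was at 2.44 and 1.53 FPKM in cocaine (-0.62) and at 1.64 and 1.17 FPKM in saline (-0.46). Dusp6, the cytoplasmic ERK phosphatase, fell just short of the threshold, with 25.7 and 17.6 FPKM in cocaine and 18.4 and 13.8 FPKM in saline. The member called higher was Dusp10, a phosphatase that prefers p38 and JNK, with 1.70 and 2.50 FPKM in cocaine (0.61) and 2.01 and 2.03 FPKM in saline (0.04).

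A few clock genes had a ratio that was farther from 0 in cocaine than in saline. Of 20 measured, 4 were called lower in cocaine (2.27% of all genes) and none in saline (2.95% of all genes). The median was -0.18 in cocaine and -0.13 in saline. The same 4 were also called in the difference of the ratios. The list as a whole had a median difference of -0.04, with 9 of 20 members above 0. Per2 (chr1:91415982-91459324, GRCm38) was at 3.09 FPKM at 24 h and 1.36 FPKM at 7 d in cocaine (-1.14) and at 1.28 and 1.07 FPKM in saline (-0.23). Per1 (chr11:69095217-69109960) was at 16.2 and 7.46 FPKM in cocaine (-1.07) and at 9.46 and 7.00 FPKM in saline (-0.41). The cocaine levels of both Period genes were above saline at 24 h and, by less, at 7 d. Ciart, a repressor of the CLOCK-BMAL1 complex, was at 7.56 and 3.74 FPKM in cocaine (-0.96) and at 4.90 and 4.10 FPKM in saline (-0.23). Bhlhe40, an E-box-binding repressor, was at 48.1 and 25.5 FPKM in cocaine (-0.86) and at 28.1 and 22.4 FPKM in saline (-0.30). The differences of ratios were -0.90 for Per2, -0.65 for Per1, -0.72 for Ciart and -0.56 for Bhlhe40; over all 12488 genes at 1 FPKM or more in the 4 groups, 367 (2.94%) had a difference of -0.5 or less and 404 (3.24%) one of 0.5 or more.

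Other clock genes with lower values stayed under the threshold. Per3 was at 4.32 and 2.96 FPKM in cocaine (-0.50, just short of a call), Nr1d1, which encodes the repressor REV-ERB alpha, at 54.0 and 37.5 FPKM (-0.48), and Cry1 at 5.65 and 4.18 FPKM (-0.38). Their saline ratios were -0.11, -0.20 and -0.13. None of the 3 activators of the loop was called: Arntl was at 10.4 and 12.1 FPKM in cocaine (0.27), Clock at 6.81 and 6.20 FPKM (-0.09) and Npas2, a relative of Clock, at 9.17 and 8.76 FPKM (-0.02). Their saline ratios were 0.09, -0.23 and -0.43. Nfil3, a repressor that binds D-box sequences, was at 4.07 and 4.68 FPKM in cocaine (0.25) and had a saline ratio of -0.12. Dbp was not a member of the comparison. By the methods, injections were given in the same morning hours each day, so that tissue of the 24 h and 7 d groups fell at the same nominal hour and that of the 2 h groups later in the day.

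**Figure D2:**
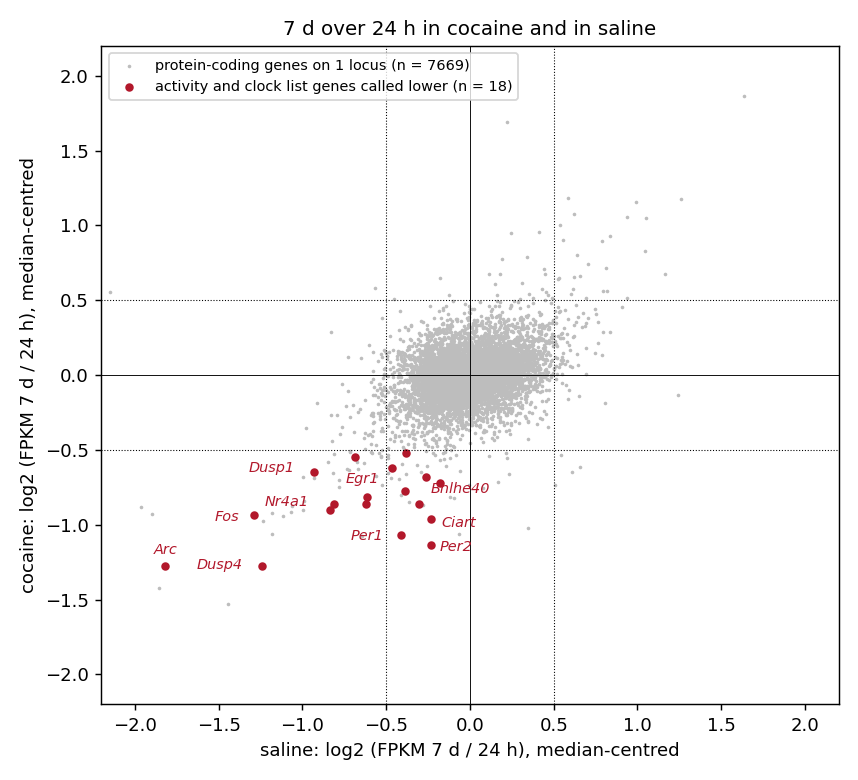
Centred log2 ratio of FPKM at 7 d over 24 h in saline (horizontal) and cocaine (vertical) for 7669 protein-coding genes with 1 locus per table (grey), with 18 activity and clock genes called lower in cocaine in red; 3 further genes fall outside the axes and dotted lines mark 0.5. Arc, Fos and Dusp4 lie low on both axes, and Per1, Per2 and Ciart lie low in cocaine with saline ratios of -0.41, -0.23 and -0.23.

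At 2 h, the third time point in the series, the cocaine levels of these genes were higher still. Arc was at 77.8 FPKM 2 h after cocaine, Fos at 14.3 FPKM, Egr1 at 121 FPKM and Nr4a1 at 36.7 FPKM. Per1 was at 21.7 FPKM, Per2 at 6.00 FPKM, Ciart at 10.2 FPKM and Bhlhe40 at 80.8 FPKM. In cocaine, all 19 genes called lower had values in descending order over 2 h, 24 h and 7 d. The fall from 24 h to 7 d in cocaine is how these genes were selected, so only the step from 2 h to 24 h was free there. In saline, which was not used for the selection, 5 of the 19 had this order, namely Per2 (2.59, 1.28 and 1.07 FPKM), Ciart (8.22, 4.90 and 4.10 FPKM), Bhlhe40 (36.2, 28.1 and 22.4 FPKM), Egr1 (41.9, 35.1 and 22.6 FPKM) and Plk3 (2.71, 2.59 and 2.12 FPKM). Arc and Dusp1 had no such order in saline: Arc was at 5.59, 23.2 and 6.47 FPKM at 2 h, 24 h and 7 d, and Dusp1 at 5.85, 11.9 and 6.14 FPKM, with the highest value at 24 h in both. Per1 in saline was nearly level between the first times, at 9.17 and 9.46 FPKM. The cocaine 24 h and 7 d values enter more than 1 of these comparisons, which are therefore not independent of each other.

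Interferon-stimulated genes held 2 of 15 called lower (2.27% of all genes) and none called higher in cocaine, with a median of -0.13; in saline the median was -0.05 and none was called lower. Xaf1, an inhibitor of the apoptosis blocker XIAP, was at 5.42 FPKM at 24 h and 2.57 FPKM at 7 d in cocaine (-1.02), while saline went from 2.79 to 3.48 FPKM (0.35). Isg15, a ubiquitin-like modifier, was at 4.76 and 3.14 FPKM in cocaine (-0.55) and at 2.44 and 2.81 FPKM in saline (0.22). For both genes the 24 h cocaine value stood above the 5 other groups, since at 2 h Xaf1 was at 2.91 FPKM in cocaine and 3.53 FPKM in saline and Isg15 at 3.77 and 2.55 FPKM. Oasl2 (-0.49) and Irf7 (-0.41), both at about 2 FPKM, were next lowest in cocaine, with saline ratios of -0.37 and -0.05. The remaining members reached up to 0.27 for Ifi27, at 19.6 and 22.8 FPKM.

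Targets of the glucocorticoid receptor and chaperones showed little movement in cocaine. Of 16 measured glucocorticoid targets 1 was called higher (1.92% of all genes) and none lower (median 0.00). This was Mt2, a metallothionein, at 163 and 250 FPKM in cocaine (0.67) and 160 and 261 FPKM in saline (0.73), on loci that overlapped by 0.73. Klf9 was at 41.0 and 29.2 FPKM in cocaine (-0.44) and 40.4 and 30.1 FPKM in saline (-0.40), so both genes moved alike in the 2 treatments. Pdk4, a kinase that restrains pyruvate oxidation, was at 3.62 and 4.76 FPKM in cocaine (0.45) and 5.02 and 4.42 FPKM in saline (-0.16). None of 22 heat shock genes and none of 19 endoplasmic reticulum chaperones was called, with medians of -0.01 and -0.02 in cocaine and 0.02 and 0.05 in saline.

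Receptor and synaptic gene lists were close to the median of all genes. None of 17 ionotropic glutamate receptor genes (median 0.03), 7 metabotropic ones (-0.02), 20 genes of the GABA system (0.01), 11 of dopamine signalling (0.07), 19 neuropeptide and interneuron genes (-0.05) or 25 synaptic vesicle genes (-0.03) was called in cocaine. In saline the medians of these 6 lists ran from -0.11 for ionotropic glutamate receptors to 0.08 for neuropeptides, with 1 gene called. Grin2a, the GluN2A subunit of the NMDA receptor, had the highest ratio among the glutamate receptors, with 5.98 and 7.48 FPKM in cocaine (0.37) and 6.01 and 5.49 FPKM in saline (-0.11). Of 20 postsynaptic scaffold genes 1 was called higher (1.92% of all genes). This was Shank1, with 49.2 FPKM at 24 h and 67.5 FPKM at 7 d in cocaine (0.51) against 54.4 and 39.1 FPKM in saline (-0.45). Shank1 shares its locus with 1700008O03Rik, which was at 33.5 and 2.06 FPKM in cocaine and 34.4 and 3.59 FPKM in saline. What the shared locus does to the Shank1 ratio was not tested. Synpo, which encodes the spine protein synaptopodin, had the lowest ratio of the scaffold list, at 64.2 and 47.9 FPKM in cocaine (-0.37) and 53.6 and 40.6 FPKM in saline (-0.38). The receptor genes Drd1 and Drd2 and the transporter gene Slc6a3 were not members, so dopamine receptors themselves are not covered.

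Ion channels and developmental signalling genes gave a few calls, some of them also called in saline. Over all genes, 1.92% were called higher and 2.27% lower in cocaine. Among 27 potassium channel genes 1 was called lower: Kcnj6, the GIRK2 channel, at 11.9 and 6.16 FPKM in cocaine (-0.90) and 11.3 and 5.57 FPKM in saline (-0.997). Of 24 sodium, calcium and HCN channel genes 3 were called lower, namely the calcium channel genes Cacna1d (-0.69 in cocaine, -0.47 in saline) and Cacna1e (-0.52 and -0.72) and the sodium channel gene Scn1a (-0.66 and -0.75), whose loci overlapped by 0.47. Plxnd1, a semaphorin receptor, was the only call among 41 axon guidance genes (-0.52 and -0.54). In the Wnt and Notch list of 27, Hes1, a transcriptional target of Notch, was called lower at 8.9997 and 5.18 FPKM in cocaine (-0.75; -0.48 in saline), and Notch2 was called higher at 1.51 and 2.37 FPKM (0.70; 0.14 in saline). Of 28 chromatin regulators, Kdm6b, a histone H3 demethylase, was called lower at 1.79 and 1.10 FPKM in cocaine (-0.64), and was at 1.52 and 0.927 FPKM in saline, under the limit at 7 d.

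Lists of nuclear genes for oxidative phosphorylation, the proteasome and ribosomal proteins had higher medians in saline than in cocaine. The 68 measured nuclear genes of oxidative phosphorylation had a median of 0.03 in cocaine with none called, and a median of 0.28 in saline with 6 called higher; over all genes 3.23% were called higher and 2.95% lower in saline. The 33 proteasome genes had medians of 0.01 and 0.17, and the 74 cytosolic ribosomal protein genes 0.09 and 0.22. Ndufa1, a complex I subunit, had the highest ratio of the oxidative phosphorylation list, at 128 and 165 FPKM in cocaine (0.41) and 133 and 209 FPKM in saline (0.67). Rps20 was the one ribosomal gene called in cocaine (0.78; 1.07 in saline), with loci that overlapped by 0.43. The 7 measured genes of mitochondrial DNA were all above 0 in cocaine, from 0.20 to 0.42, with a median of 0.24 and of 0.19 in saline; mt-Nd3 was at 4981 and 6443 FPKM in cocaine (0.42) and had a saline ratio of 0.40.

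**Figure D3:**
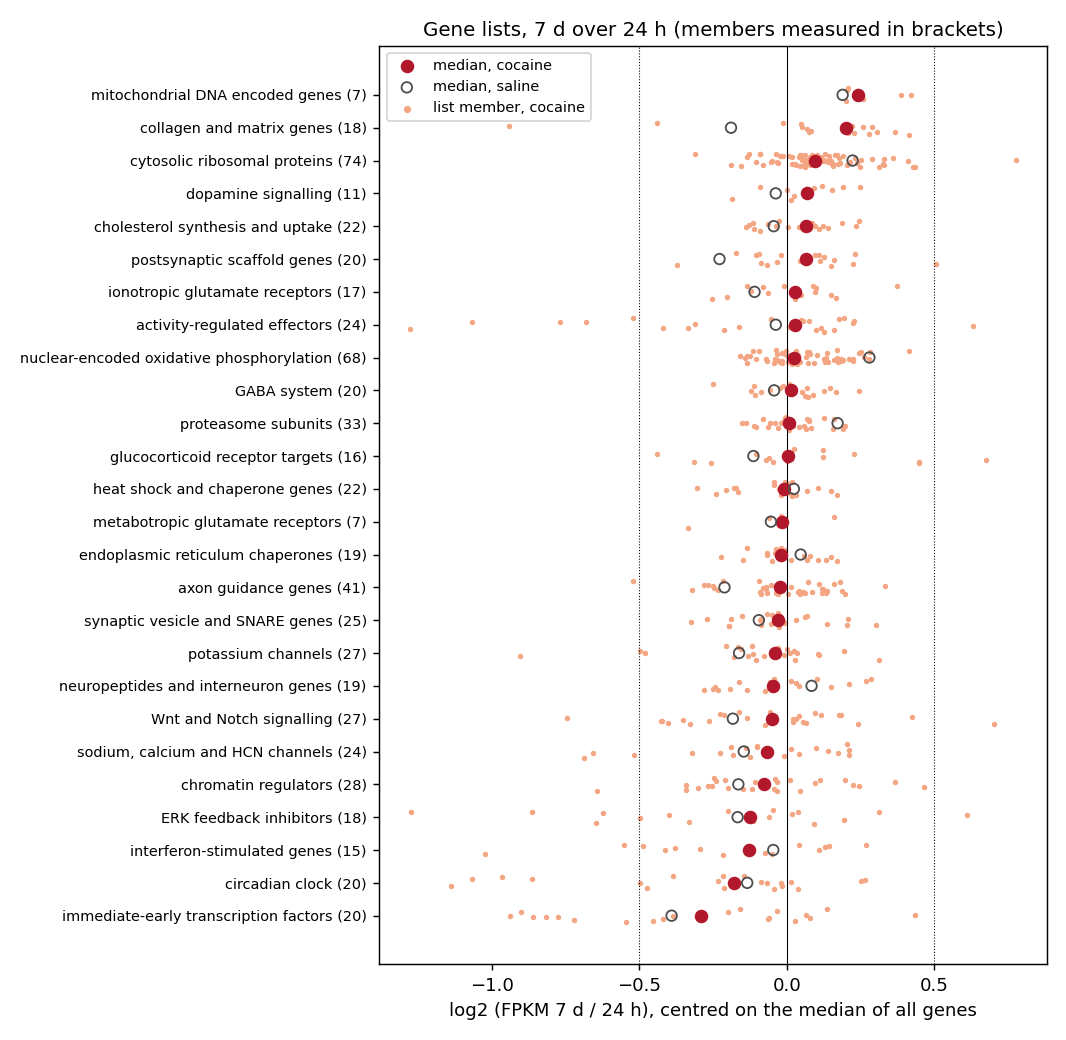
Centred log2 ratio of FPKM at 7 d over 24 h for 26 gene lists, with members in cocaine as small points, the list median in cocaine as a filled circle and the median in saline as an open circle. Immediate-early factors and clock genes have the lowest medians in cocaine (-0.29 and -0.18), and oxidative phosphorylation lies at 0.03 in cocaine and 0.28 in saline.

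The transcripts of these lists are short, with a median of 931.5 bases for oxidative phosphorylation and 855 bases for ribosomal proteins against 3054 bases for all members, and the ratio in saline went with transcript length. Over the genes with a length (84.2% of the members), the median saline ratio was 0.23 for transcripts under 1000 bases and -0.17 for those of 8000 bases and over. In cocaine the same classes had medians of 0.05 and -0.01. Across genes Spearman's rho of ratio and length was -0.44 in saline and -0.11 in cocaine, a description over 10668 and 10694 genes that share their libraries. Of the 6 groups, the 7 d saline group stood farthest from the middle in this respect (rho -0.51 against the median of the groups) and the 7 d cocaine group nearest to it (-0.01). With the length trend taken out, the medians of oxidative phosphorylation were 0.0019 in cocaine and 0.11 in saline and those of the proteasome -0.01 and 0.07, while those of ribosomal proteins turned round, to 0.07 in cocaine and 0.02 in saline.

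**Figure D4:**
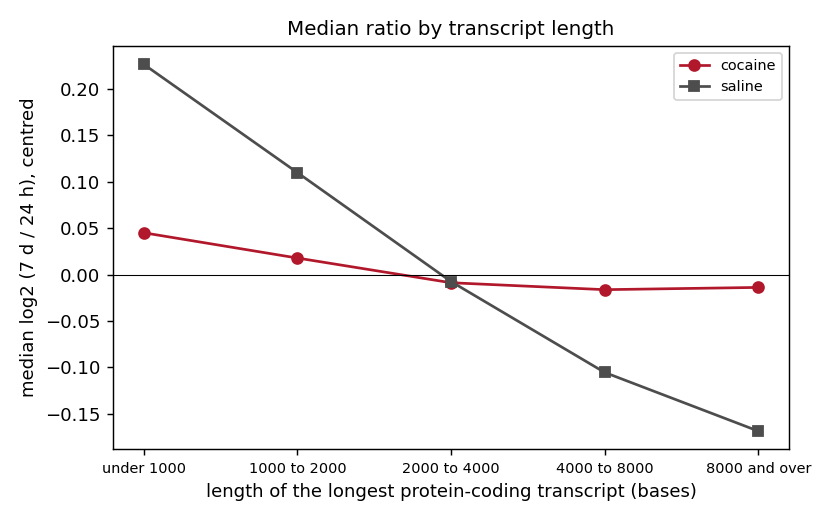
Median centred log2 ratio of FPKM at 7 d over 24 h (vertical) in 5 classes of transcript length (horizontal), for cocaine (red circles) and saline (grey squares); each point is a median over genes, and no error is drawn because genes are not replicates. The saline medians go from 0.23 to -0.17 and the cocaine medians from 0.05 to -0.01.

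Markers of astrocytes, oligodendrocytes and meninges were slightly higher at 7 d in cocaine and lower in saline. Of 11 measured astrocyte markers 9 were above 0 in cocaine (median 0.24, none called) and 1 in saline (median -0.24), and 6 had a difference of ratios of at least 0.5, as 3.24% of all genes did. Gfap, the intermediate filament of astrocytes, was at 32.4 FPKM at 24 h and 38.5 FPKM at 7 d in cocaine (0.30) and at 41.3 and 31.4 FPKM in saline (-0.37). Slc1a2, the main glutamate transporter of astrocytes, was at 251 and 286 FPKM in cocaine (0.24) and 276 and 219 FPKM in saline (-0.31). Gja1, the gap junction protein connexin 43, was at 63.9 and 74.2 FPKM in cocaine (0.27) and 74.4 and 61.3 FPKM in saline (-0.26). The summed level of the list was 738 FPKM at 24 h and 822 FPKM at 7 d in cocaine, and 823 and 709 FPKM in saline, so the 24 h cocaine and the 7 d saline groups were the lower ones.

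Of 13 meningeal fibroblast markers all were above 0 in cocaine (median 0.23) and 1 in saline (median -0.23), with 1 call in cocaine (1.92% of all genes were called higher) and 7 differences of at least 0.5 (3.24% of all genes). The call was Ogn, which encodes the matrix protein osteoglycin, at 7.86 and 10.7 FPKM in cocaine (0.50; -0.07 in saline). Slc6a13, a GABA transporter of the meninges, was at 9.43 and 11.5 FPKM in cocaine (0.34) and 10.9 and 9.02 FPKM in saline (-0.25). Their summed level was 1932 and 2157 FPKM in cocaine and 2211 and 2091 FPKM in saline. Collagen and matrix genes followed, with medians of 0.20 in cocaine and -0.19 in saline, apart from Lamb1, a laminin chain called lower in both (-0.94 and -1.11). In bulk tissue, fewer cells of a type and less RNA per cell cannot be told apart, and the part that the proportion of cell types has in any ratio given here was not tested.

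Oligodendrocyte markers were above 0 in 13 of 14 measured genes in cocaine (median 0.26) and in 4 of 14 in saline (median -0.11). Mbp, the myelin basic protein gene, was at 392 and 457 FPKM in cocaine (0.27) and 482 and 472 FPKM in saline (-0.01). The summed level of the 14 genes was 706 and 801 FPKM in cocaine and 840 and 804 FPKM in saline. Mobp was tested on loci that do not overlap between the tables, and was under 1 FPKM in the 24 h table. With the length trend taken out, the medians in cocaine and saline were 0.25 and -0.14 for astrocyte markers. They were 0.23 and -0.28 for meningeal fibroblast markers and 0.27 and -0.11 for oligodendrocyte markers. Without that step, microglia markers had medians of 0.13 in cocaine and -0.01 in saline, and oligodendrocyte precursor markers 0.04 and -0.19. Endothelial markers had medians of 0.05 and -0.22, and mural cell markers 0.03 and -0.31. Excitatory neuron markers had medians of -0.09 and -0.02, and inhibitory neuron markers -0.08 and -0.11. Cspg4 was the one mural cell marker called in cocaine (0.63), a gene that precursors of oligodendrocytes also express. As a check of the tissue, the cortical excitatory marker Camk2a was at 968 and 999 FPKM in cocaine and 1048 and 844 FPKM in saline. All 12 of 12 markers of upper cortical layers were measured, and 10 of 15 markers of deep layers. Only 2 of 12 olfactory bulb markers were measured, and Eomes and Tbx21 were not members. In cocaine the measured ones were Calb2 at 8.06 and 6.57 FPKM and Slc17a6 at 2.57 and 2.37 FPKM. Of 14 striatal markers 8 were measured, with a summed level of 149 FPKM at both times in cocaine and of 143 and 146 FPKM in saline; Ppp1r1b was at 47.1 and 50.5 FPKM in cocaine, while Drd2 was not a member. Choroid plexus had 2 of 12 markers measured, Ttr and Enpp2, and the list's 10 other markers were not members. Ttr was at 1.10 and 6.54 FPKM in cocaine (2.62) and 1.801 and 0.284 FPKM in saline. Its 24 h cocaine value was close to the limit of 1 FPKM, and its locus spans 116251 bases. Enpp2 was at 77.7 and 74.7 FPKM in cocaine.

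**Figure D5:**
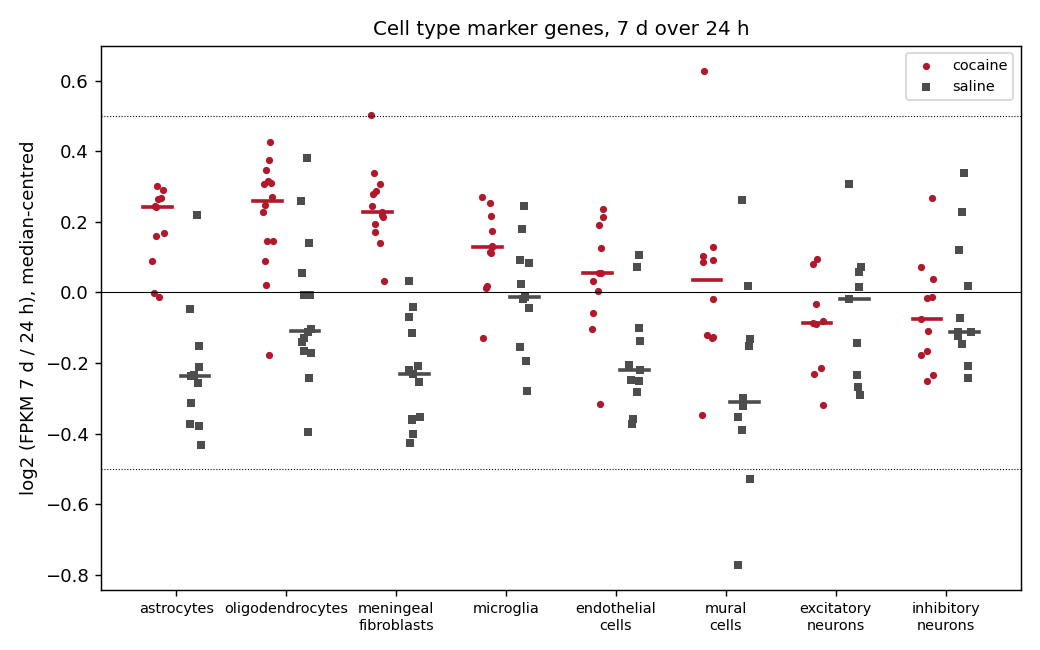
Centred log2 ratio of FPKM at 7 d over 24 h (vertical) for markers of 8 cell types, 1 point per gene, with cocaine in red, saline in grey and bars at the medians; dotted lines mark 0.5. Astrocyte and meningeal fibroblast markers have medians of 0.24 and 0.23 in cocaine and -0.24 and -0.23 in saline.

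The genes called in cocaine differed as a whole from all members in gene type and in the overlap of their loci between the 2 tables. Of the 532 genes called in cocaine, 55.8% were protein-coding by RefSeq symbol, against 83.1% of all members. Of the 62 measured small nuclear RNA genes 40 were called, where 1.92% of all genes were called higher and 2.27% lower. The loci did not overlap by 0.9 for 11.8% of the called genes and 6.63% of all members. Of the genes called higher in cocaine 88 were also called higher in saline, which is 36.1% of the cocaine calls and 21.5% of the saline calls, and of those called lower 116 were shared, or 40.3% and 30.9%. Several of the most extreme ratios were also shared by both treatments, on loci that overlapped by at least 0.9. Why these genes differ between the tables was not tested. Cdk8 was at 21629 FPKM at 24 h and 6.08 FPKM at 7 d in cocaine (-11.75), with 17249 and 9.63 FPKM in saline, and Cmss1 was at 6.92 and 1327 FPKM in cocaine (7.63), with 6.38 and 4109 FPKM in saline. Jarid2 (-9.06) and Gphn (-6.05) were likewise above 1000 FPKM only in the 24 h table, in both treatments, and Ephx4 (3.02) was at 52.8 and 65.4 FPKM only in the 7 d table. Cmss1 was also high at 2 h, at 15863 FPKM in cocaine and 14903.5 FPKM in saline. In each of these genes both treatments were high or low together at a given time.

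The other genes with the highest ratios were Gm26244, Gm24924, Gm22475, Rnu1a1, Gm22068 and Gm25733, loci named for small RNAs or gene models (1.98 to 3.31), and Trbc2, a T cell receptor constant region. Trbc2 was at 464040 and 2210000 FPKM in cocaine (2.30) and at 59332.5 and 3470000 FPKM in saline (5.89). The genes with the lowest ratios included Gm6977, Gm22102, Gm3788, Gm25583 and Gm24967 (-5.78 to -2.69), and 1700008O03Rik, which was at 33.5 and 2.06 FPKM in cocaine (-3.97) and 34.4 and 3.59 FPKM in saline. Tceanc2, a gene related to transcription elongation factor A, was different: it was at 41.0 FPKM at 24 h and 4.78 FPKM at 7 d in cocaine (-3.05) and at 4.38 and 4.98 FPKM in saline, with 4.02 FPKM in cocaine and 4.38 FPKM in saline at 2 h. The 24 h cocaine value alone stood apart.

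A narrower set was drawn after these values had been seen: 7672 protein-coding genes on 1 overlapping locus in each table, at 1 FPKM or more in all 4 groups and 3 FPKM or more in the higher cocaine group. Of these, 51 were called higher in cocaine (0.66%) and 89 lower (1.16%). Saline was called in the same direction for 26 of the 51 and 42 of the 89, and lay within 0.25 of 0 for 9 and 24. Over all genes with a saline ratio, 3.23% were called higher, 2.95% were called lower and 73.1% lay within 0.25 of 0. Among the shared ones were Herc1, a giant ubiquitin ligase, at 10.8 and 23.5 FPKM in cocaine and 10.4 and 24.7 FPKM in saline, and Ankrd35, at 2.24 and 7.90 FPKM in cocaine and 2.52 and 7.72 FPKM in saline. Plvap, a protein of fenestrated vessels, was at 8.81 and 4.04 FPKM in cocaine (-1.07) and 8.82 and 5.56 FPKM in saline (-0.64).

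The 9 genes called higher in cocaine with saline near 0 were Cdr1, Gm14440, Bche, Gng11, H2-Aa, Gstm2, Fgd6, Fabp7 and Lactb2. Cdr1 was at 4.62 FPKM at 24 h and 14.4 FPKM at 7 d in cocaine (1.69) and at 4.59 and 5.26 FPKM in saline (0.22); its locus spans a region that also gives rise to transcripts of the opposite strand, which cannot be told apart without strand information. Bche, which encodes butyrylcholinesterase, was at 2.47 and 4.07 FPKM in cocaine (0.78) and 2.95 and 3.32 FPKM in saline (0.19). Fabp7, the brain fatty acid-binding protein of astrocytes, was at 31.2 and 43.6 FPKM in cocaine (0.54) and 42.3 and 46.5 FPKM in saline (0.16). In all of the 9 but Cdr1 the 24 h cocaine level was the lowest of the 4 groups, though in Fgd6 only just (2.04 FPKM against 2.05 FPKM in saline at 24 h). In Gng11, H2-Aa, Gstm2 and Lactb2 the 7 d cocaine level was within 0.5 FPKM of the 24 h saline level.

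Among the 24 called lower with saline near 0 were Per2, Ciart, Nab2, Isg15 and Tceanc2, described above. Ddx39b, an RNA helicase of splicing and mRNA export, was at 93.8 FPKM at 24 h and 43.3 FPKM at 7 d in cocaine (-1.06), while the 3 saline groups and the 2 h cocaine group lay between 44.0 and 46.8 FPKM. Rsrp1, a protein rich in arginine and serine, was at 35.1 and 20.6 FPKM in cocaine (-0.72) and 23.2 and 25.7 FPKM in saline (0.17), and at 2 h was at 37.9 FPKM in cocaine and 21.3 FPKM in saline. Baz2b, a bromodomain protein, was at 5.29 and 2.90 FPKM in cocaine (-0.82) and 5.18 and 4.69 FPKM in saline (-0.12), so that here the 7 d cocaine value stood apart. Uap1l1 was at 8.97 and 5.20 FPKM in cocaine (-0.74) and 8.95 and 8.78 FPKM in saline (-0.01). Phlda1, a gene induced by growth factors, was at 8.61 and 5.45 FPKM in cocaine (-0.61) and 7.98 and 7.12 FPKM in saline (-0.14).

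In the difference of the ratios, the largest positive values were those of Gm25733, Gm26244, Gm24924, Gm22068, Gm26191, Gm22405, BC024978, Auts2, Gm24157 and Gm11973, and the largest negative ones those of Ighm, Gm3788, Gm26427, Trbc2, Tceanc2, Gm25127, Gm16550, Snhg9, Gm25583 and Gm23512. Several of these rest on 1 group. Ighm, the constant region of immunoglobulin M, was at 9.46 and 11.5 FPKM in cocaine (0.34) and at 10.2 and 6889 FPKM in saline, a difference of -9.08 that comes from the 7 d saline value. BC024978 was at 3.41 and 3.20 FPKM in cocaine and 23.6 and 3.06 FPKM in saline, where the 24 h saline value was the high one. Across the 12488 genes with both ratios, Spearman's rho between the cocaine and the saline ratio was 0.30, a description over genes that share their tables.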

How the data were processed

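RNA from mouse prefrontal cortex was sequenced by the authors, who trimmed and aligned the reads and ran Cuffdiff for each time point. The submitters' processing notes name CASAVA 1.8.2, Trimmomatic 0.32, TopHat2 2.0.12, Cufflinks 2.2.1 and Cuffdiff. The authors deposited 1 table per time point, with 1 pooled FPKM per group for each locus (saline first, cocaine second, matched by the values of the study's supplementary tables). The tables also hold the authors' log2 fold change, test statistic, p value and q value of cocaine against saline, which were not used. Loci are on GRCm38, on which 97.8% and 99.8% of the loci with 1 RefSeq symbol at 24 h and 7 d overlapped that gene. The methods name mm9, a read length other than the labels' and 12 libraries where the label text has 6.

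Tables of 24 h and 7 d were joined by gene name (longest locus where a name had several, as 781 and 200 names did), with status OK. Ratios used genes at 1 FPKM or more without pseudocount, computed with pandas 2.3.3, scipy 1.17.1, numpy 2.4.6 and matplotlib 3.10.9 under Python 3.11.15, and the calculation was checked on simulated tables. With 1 pooled value per group no test was possible and depth is unknown. The spread of ratios over genes is the only spread given, and it is not an error between libraries. The transcript length of a symbol was taken from its longest coding transcript in GENCODE M1.

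Genes were named by rule: among genes of 1 name on a locus of at least 300 bases that overlaps by at least 0.9 in both tables, at 3 FPKM or more in the higher cocaine group, the 10 largest and 10 smallest cocaine ratios and differences of ratios, and, of each list with at least 4 members measured, the 2 highest, the 2 lowest and any needed to account for the list. Where the text gives other genes, or fewer of a list, they were chosen after their values were seen. The comparison and the lists were chosen with earlier results of these data known.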

Additional observations from a re-analysis of the deposited data

Results flagged for a closer look

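In 6 protein-coding genes that met the locus and level limits for named genes, cocaine and saline were called in opposite directions; each group is 1 pooled value, and the difference was not tested. Auts2, a gene of neuronal development, was at 29.2 FPKM at 24 h and 41.4 FPKM at 7 d in cocaine and at 35.1 and 7.78 FPKM in saline, a difference of log2 ratios (cocaine less saline) of 2.71; at 2 h it was at 21.2 FPKM in cocaine and 15.4 FPKM in saline. Sp140, a nuclear body protein of immune cells, was at 2.11 and 3.05 FPKM in cocaine and 2.74 and 1.82 FPKM in saline, a difference of 1.15. Armc2 was at 5.89 and 3.42 FPKM in cocaine and 3.23 and 4.52 FPKM in saline, a difference of -1.24. Efcab10 was at 4.09 and 2.73 FPKM in cocaine and 2.88 and 4.14 FPKM in saline, a difference of -1.08. Gm21586 and Gm21953 were at 10.2 and 6.46 FPKM and at 10.7 and 6.602 FPKM in cocaine, with differences of -1.27 and -1.25; their levels are nearly equal in every group, and near-identical copies may share reads.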

How the results depend on the processing

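No paired analysis was possible because each group has 1 pooled value, and for the same reason no library could be left out. The 6 counts (higher and lower in cocaine, higher and lower in saline, difference higher and lower; 244, 288, 410, 375, 404 and 367) stayed within 1.5 times when centring was left out, when the locus with the highest mean FPKM or the sum over loci was used, and when only overlapping loci or loci of at least 300 bases with 1 name were kept. They were 58, 73, 103, 85, 54 and 90 at a log2 ratio of 1, 91, 101, 180, 132, 129 and 126 with a minimum of 5 FPKM, 506, 520, 646, 662, 798 and 667 with no minimum, 132, 183, 252, 199, 199 and 210 on log2(FPKM + 1), and 126, 165, 142, 221, 260 and 157 with the length trend taken out, which keeps only genes with a transcript length. In the protein-coding set, chosen after seeing the data, the cocaine counts were 51 and 89. Single genes were put through the alternatives if they had an extreme ratio or difference, or were activity or clock genes called lower. The 2 highest and 2 lowest members of each list were also included. Genes named only from the protein-coding set, such as Cdr1 and Ddx39b, were not. Among the genes included, none called in cocaine changed sign. Of their 1622 values under the alternatives 39 moved by more than the robust deviation of all genes, 31 of them on log2(FPKM + 1). Of 351 list medians 8 moved by 0.1 or more. With the length trend taken out, 3 of 19 clock genes were called lower in place of 4 of 20. With only overlapping loci, 5 of 17 immediate-early factors were called lower, in place of 7 of 20. A minimum of 5 FPKM left 1 of 11 ERK feedback inhibitors called lower in place of 4 of 18. The same limit left 2 of 13 clock genes in place of 4 of 20, with a median of -0.08 in place of -0.18. It left 2 of 18 effectors called lower in place of 5 of 24, and 6 of 11 immediate-early factors in place of 7 of 20. Low levels limit the comparison: 226 of the 532 calls had a mean of 1 to 3 FPKM.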

Other observations

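Over 12280 genes at 1 FPKM or more in all 6 groups, the robust deviation of the log2 ratio between the 7 d cocaine group and the 24 h saline group was 0.12, against 0.15 to the 24 h cocaine group, 0.18 to the 7 d saline group, 0.15 to the 2 h saline group and 0.18 to the 2 h cocaine group. Between the 7 d saline group and the other groups it ran from 0.18 to 0.27. Immediate-early transcription factors had a median of -0.06 in the 7 d cocaine group relative to the median of the 6 groups, 0.21 in the 24 h and 0.82 in the 2 h cocaine group, and of -0.29, 0.04 and -0.17 in the saline groups at 7 d, 24 h and 2 h.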
